A study of Homo sapiens with 6 samples.

Results

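Mitochondrial protein import genes and mitochondrial carrier genes were taken from the deposited table by their symbols, as the numbered TIMM and TOMM genes and the numbered members of the SLC25 family. The table lists 59074 genes, and 74 of them matched: 17 TIMM, 9 TOMM and 48 SLC25A genes. Of the TIMM entries, 3 (TIMM9P1, TIMM9P2 and TIMM9P3) are pseudogenes of the chaperone gene TIMM9, which left 23 import genes. The RNA came from the established human lines of glioblastoma LN-229, T98G and U251, 72 h after transient transfection with siControl (non-target siPOOLs, pools of siRNAs) or siHOTAIRM1 (siPOOLs against the long non-coding RNA HOTAIRM1). The sample titles spell the first line LNT229. Each of the 6 libraries was the only library of its cell line and condition, so a difference within a cell line had no replicate and the 3 cell lines were the replicates of the knock-down.

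Nearly all mitochondrial proteins are made in the cytosol and enter through the TOM complex of the outer membrane. From there, proteins with a presequence pass the TIM23 complex of the inner membrane, while the carriers themselves are escorted by the small TIM chaperones of the intermembrane space and inserted by the TIM22 complex. The SLC25 carriers then move ADP and ATP, phosphate, metabolites, iron and cofactors across the inner membrane, so that the import genes serve the carriers as cargo.

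Depth, estimated from what 1 read is worth among the low values, ran from 52.3 to 104 M reads. A level of 3 reads, the smallest treated as detectable, was 0.0289 to 0.0574 CPM (counts relative to library size, as the authors scaled them). HOTAIRM1 itself was at 1.99 CPM in the siControl and 0.952 CPM in the siHOTAIRM1 library of LN-229, at 3.49 and 2.15 CPM in T98G, and at 1.27 and 0.623 CPM in U251. Of the markers of glial and glioma cells, VIM (254 to 1794 CPM) and CD44 (304 to 819 CPM) were high in all 6 libraries. NES was at 329 to 507 CPM in LN-229 and U251 and at most 0.956 CPM in T98G. OLIG2 was at most 1.69 CPM in any library. GFAP reached 42.5 CPM in U251 and at most 0.317 CPM in the other lines, and the T98G libraries were near 0 for SOX2, S100B and GFAP. The 6 markers of other cell types were at 0.523 CPM or less everywhere. The siControl library of U251 stood apart, since it was the shallowest and 5 abundant RNAs without a poly(A) tail took 13.7% of its CPM scale, against 3.97 to 6.88% in the other 5 libraries.

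Of the 74 genes, 61 reached a mean of 1 CPM over the 6 libraries and were tested (22 import genes and 39 carriers). The other 13 were SLC25A2, SLC25A18, SLC25A21, SLC25A31, SLC25A34, SLC25A41, SLC25A47, SLC25A48, SLC25A52, TOMM20L and the 3 pseudogenes. TIMM9P1 and TIMM9P3 had 0 reads in every library, which allows at most 3 reads each. SLC25A21, the carrier of oxoadipate, had 5 and 6 reads in LN-229, 1 and 2 reads in T98G and 0 reads in both U251 libraries. SLC25A31, the testis form of the ADP/ATP carrier, had at most 1 read in any library. TOMM70A, the receptor of the outer membrane through which carriers enter, did not match by its symbol and was kept in a list of other import genes.

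The bases before the RefSeq start of 6 of these genes are shown for the most abundant import gene (TOMM20), for the near-identical copies TIMM23 and TIMM23B, whose values moved apart, and for SLC25A12, SLC25A24 and SLC25A36, carriers at the lower and upper end of the changes given further on. Each is the 120 bases before the start on GRCh38.p14, read 5′ to 3′ on the strand of the gene, and capitals mark the letters of a searched motif or its reverse complement.
TOMM20 (chr1:235128838-235128957, minus strand): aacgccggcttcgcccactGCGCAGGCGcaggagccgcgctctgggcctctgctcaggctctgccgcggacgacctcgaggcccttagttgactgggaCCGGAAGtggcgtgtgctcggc
TIMM23 (chr10:45972369-45972488, plus strand): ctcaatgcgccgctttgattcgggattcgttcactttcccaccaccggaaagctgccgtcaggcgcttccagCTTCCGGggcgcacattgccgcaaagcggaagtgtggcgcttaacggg
TIMM23B (chr10:49941933-49942052, plus strand): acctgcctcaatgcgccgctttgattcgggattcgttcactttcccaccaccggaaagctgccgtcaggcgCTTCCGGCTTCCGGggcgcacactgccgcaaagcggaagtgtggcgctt
SLC25A12 (chr2:171894245-171894364, minus strand): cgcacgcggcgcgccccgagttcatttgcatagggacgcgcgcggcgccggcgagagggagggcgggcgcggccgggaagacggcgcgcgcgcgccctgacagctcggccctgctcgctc
SLC25A24 (chr1:108200344-108200463, minus strand): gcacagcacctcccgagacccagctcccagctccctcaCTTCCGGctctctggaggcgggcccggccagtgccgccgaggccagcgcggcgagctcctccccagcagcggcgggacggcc
SLC25A36 (chr3:140941716-140941835, plus strand): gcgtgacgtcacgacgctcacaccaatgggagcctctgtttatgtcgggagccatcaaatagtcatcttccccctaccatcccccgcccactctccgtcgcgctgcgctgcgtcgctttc

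The capitals in TOMM20 are GCGCAGGCG, a form of the NRF1 motif GCGCANGCG, and CCGGAAG, the motif of ETS factors. The window of TIMM23 held 1 ETS motif and that of TIMM23B held a pair of them in direct succession, both as the reverse complement CTTCCGG. Over the 300 bases around their starts, TIMM23 and TIMM23B were identical at 289 of 294 aligned bases (98.3%). Over these 300 bases each of the copies held 2 ETS motifs, and TIMM23 also held 1 motif of estrogen-related receptors. SLC25A24 held 1 ETS motif, and none of the 5 searched motifs lay in the windows shown for SLC25A12 and SLC25A36. RefSeq gave a promoter of 300 bases (250 before and 50 after the start) for 53 of the 61 tested genes and none for, among others, SLC25A16, SLC25A30, SLC25A32, SLC25A35, SLC25A37, TIMM8B and TOMM5. On either strand, the ETS motif was in 16 of the 53 (30.2%), in 9 of 20 import genes (45%) and in 21.2% of carriers, beside 19.8% of 9458 promoters of tested genes and 10.7% of all 27305 promoters. The NRF1 motif was in 6 of the 20 import genes (30.0%) and in 9.09% of carriers, beside 15.2% of tested genes and 8.05% of all promoters. The shares over the 53 were 7.55% for YY1 (AANATGGCG, in 7.17% of tested genes and 3.37% of all promoters), 17.0% for the E-box (CACGTG, in 10.2 and 7.43%) and 3.77% for the motif of estrogen-related receptors (AAGGTCA, in 2.4 and 3.97%). These matches are descriptions of letters and not of bound factors.

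The highest mean levels were those of SLC25A3, TOMM20, SLC25A5, TOMM5, SLC25A37, SLC25A36, TOMM22 and TIMM17A, between 48.5 and 162 CPM. Per kb of transcript, the order was different, with SLC25A5 (109 CPM per kb), TOMM5 (107), TOMM7 (97.2) and TOMM6 (66.4) ahead of TOMM20 (44.1) and SLC25A3 (27.0). The lengths were those of the canonical GENCODE v44 transcripts, and the forms present in these cells were not measured. TOMM20 and TOMM22 are receptors of the TOM complex, TOMM5, TOMM6 and TOMM7 are its small subunits, and TOMM40 is its pore.

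TOMM20 was at 142 and 135 CPM in LN-229 (siControl, then siHOTAIRM1, as in all pairs of values here), at 123 and 92.5 CPM in T98G and at 191 and 185 CPM in U251. TOMM40 varied little between the lines, with 28.4 and 32.2 CPM in LN-229, 33.5 and 26.7 CPM in T98G and 33.4 and 37.4 CPM in U251. TOMM5 was at 41.5 and 36.7 CPM in LN-229, at 31.1 and 23.2 CPM in T98G and at 218 and 102 CPM in U251. The U251 libraries were thus the highest for TOMM20 and TOMM5 without overlap with the other lines, while the lines overlapped for TOMM40.

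**Figure D1:**
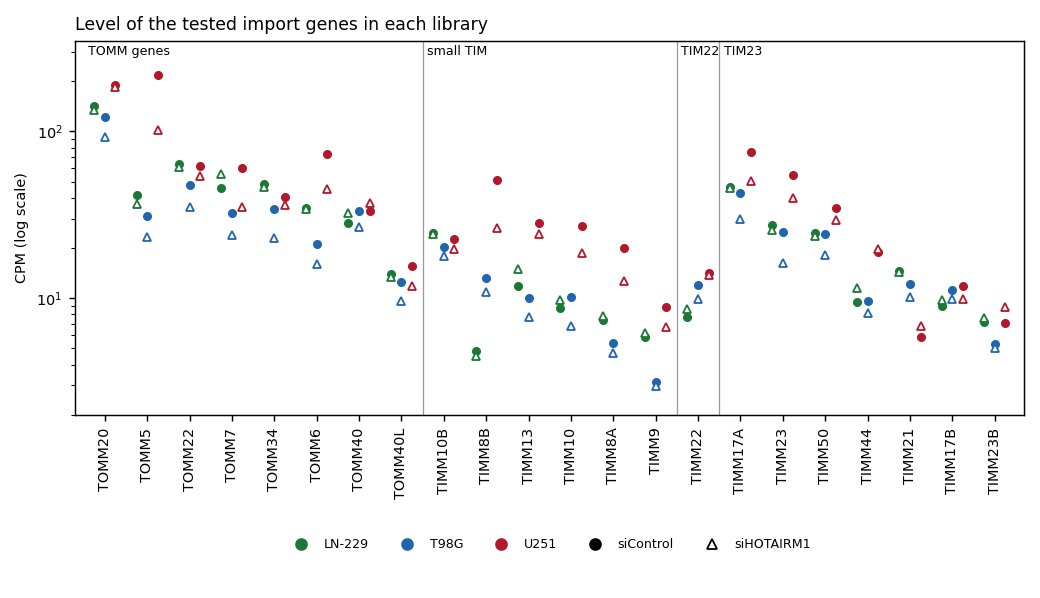
Level of each of the 22 tested import genes in CPM (log scale) in the 6 libraries, by complex, with colour for the cell line, filled circles for siControl and open triangles for siHOTAIRM1. TOMM20 was the highest by mean, and TOMM5 and TIMM8B were the genes with the widest gap between U251 and the other lines.

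U251 was more often the highest line than LN-229 or T98G. Both of its libraries were above all 4 libraries of the other lines for 34 of the 61 genes (55.7%, against 32.7% of 14294 tested genes), while LN-229 and T98G were each highest for 6 (9.84%, beside 20.6 and 17.2% of tested genes). Both T98G libraries were below all others for 24 genes (39.3%, against 28.0% of tested genes). These counts use the CPM scale as deposited.

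In limma over all tested genes, with the condition as covariate and Benjamini-Hochberg adjusted p under 0.05, 30 members were higher in U251 than in LN-229 (49.2%, where 36.7% of all genes were called higher) and 5 were lower (8.20%, where 23.9% of all genes were). Against T98G, 39 were higher in U251 (63.9%, with 41.0% of all genes) and 9 were lower (14.8%, with 23.1%). Between T98G and LN-229, 14 were higher (23.0%, with 24.1% of all genes) and 19 lower (31.1%, with 30.8%) in T98G, shares near those of all genes. With every library centred on its median, the members higher and lower were 19 and 15 between T98G and LN-229, 25 and 9 between U251 and LN-229, and 30 and 12 between U251 and T98G. In the same order, 55.7, 55.7 and 68.9% of members were then called in either direction, beside 57.5, 62.1 and 64.3% of all genes. The split between T98G and LN-229 also turned with the library left out. More of the called members were lower in T98G without the siControl library of either line, and more were higher without the siHOTAIRM1 library. A line then stands on 1 library, so the counts of these fits by direction are not given. Their totals come in the last section, with the same limit. With 1 library per condition in each line, the tests between lines treat the siControl and siHOTAIRM1 libraries of a line as its replicates. How separate cultures of a line vary was not measured.

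Among the import genes, TIMM8B, a small TIM chaperone, had a level of 4.80 and 4.48 CPM in LN-229, 13.3 and 10.8 CPM in T98G and 51.1 and 26.4 CPM in U251. The 3 lines did not overlap. On the log2(CPM + 1) scale, U251 exceeded LN-229 by 2.74 (SE 0.189, adjusted p = 4.99e-15 in limma) and T98G exceeded LN-229 by 1.21 (adjusted p = 1.40e-06 in limma). TOMM5 was higher in U251 than in T98G by 2.43 (SE 0.192, adjusted p = 2.30e-13 in limma) and than in LN-229 by 1.91 (adjusted p = 1.11e-10 in limma). A share of the exonic bases of TIMM8B (30.1%) overlaps NKAPD1, and the library kit did not mark strand, so reads of such overlaps cannot be assigned to either gene.

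The ADP/ATP carriers, which exchange ADP and ATP over the inner membrane, are SLC25A4, SLC25A5 and SLC25A6 in somatic cells. SLC25A5 was at 55.4 and 55.6 CPM in LN-229, at 116 and 83.9 CPM in T98G and at 318 and 228 CPM in U251, which set the lines apart without overlap. SLC25A4, the form of heart and muscle, was at 11.5 and 11.8 CPM in LN-229, at 2.87 and 2.05 CPM in T98G and at 13.1 and 14.2 CPM in U251. SLC25A6 was at 27.2 and 33.7 CPM in LN-229, at 52.2 and 43.0 CPM in T98G and at 43.0 and 38.9 CPM in U251.

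Of the per-kb level of these 3 genes, SLC25A5 took 66.5 and 62.2% in LN-229, 70.7 and 68.1% in T98G and 88.2 and 85.3% in U251. SLC25A4 took 4.07 and 3.92% in LN-229 and at most 1.57% in the other lines. SLC25A5 was higher in U251 than in LN-229 by 2.26 on the log2(CPM + 1) scale (SE 0.192, adjusted p = 1.46e-12 in limma). SLC25A4 was lower in T98G than in LN-229 by 1.88 (SE 0.179), with an adjusted p of 2.77e-11 in limma, and U251 exceeded T98G by 2.09 (adjusted p = 1.99e-12 in limma). SLC25A4 did not pass the threshold between U251 and LN-229 (difference 0.21, SE 0.179, adjusted p = 0.322 in limma).

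SLC25A27, which encodes the uncoupling protein relative UCP4 of brain, was at 3.31 and 2.94 CPM in LN-229 and at 9.64 and 9.02 CPM in T98G. In U251 it had 0 reads in the siControl library and 1 read in the siHOTAIRM1 library. Against the floor of 3 reads in the siControl library of U251, the siControl level was at least 57.6-fold higher in LN-229 and at least 168-fold higher in T98G. In the siHOTAIRM1 libraries, against that single read, the ratio to U251 was 298 for LN-229 (95% counting interval 53.1 to 11805) and 913 for T98G (163 to 36111). SLC25A14, which encodes the related UCP5, had another order of lines, with 1.86 and 2.4 CPM in LN-229, 4.81 and 4.15 CPM in T98G and 8.88 and 7.95 CPM in U251.

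SLC25A36, a pyrimidine nucleotide carrier, was at 41.0 and 40.4 CPM in LN-229, at 107 and 101 CPM in T98G and at 27.8 and 40.8 CPM in U251. T98G exceeded LN-229 by 1.33 (SE 0.184, adjusted p = 1.20e-07 in limma), and LN-229 and U251 overlapped. SLC25A37, which encodes mitoferrin-1, a carrier of iron, was at 101 and 105 CPM in LN-229, at 76.4 and 76.7 CPM in T98G and at 31.9 and 51.9 CPM in U251. It is thus among the 5 genes called lower in U251 than in LN-229, by 1.32 on the log2(CPM + 1) scale (SE 0.189), with an adjusted p of 2.46e-07 in limma.

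SLC25A45 had the same order as SLC25A37, with 3.29 and 2.91 CPM in LN-229, 1.04 and 1.03 CPM in T98G and 0.325 and 0.543 CPM in U251. SLC25A15, the ornithine carrier, was at 6.84 and 7.06 CPM in LN-229, 2.98 and 2.41 CPM in T98G and 9.97 and 8.08 CPM in U251. T98G was the lowest line for SLC25A15. SLC25A15 differed by -1.11 between T98G and LN-229 (SE 0.175, adjusted p = 1.56e-06 in limma) and SLC25A45 by -1.01 (SE 0.149). Only the LN-229 libraries of SLC25A45 were well above 1 CPM, so it passed the filter on the mean level through that line. Its call as higher in LN-229 is therefore not independent of the filter.

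**Figure D2:**
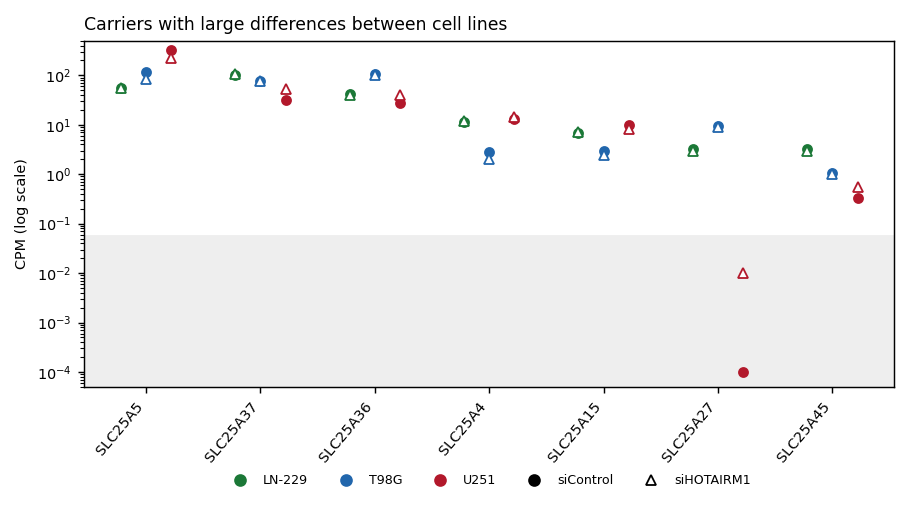
Level in CPM (log scale) of 7 carriers with large differences between cell lines, in order of their mean, with filled circles for siControl and open triangles for siHOTAIRM1. The shaded band lies under 0.0574 CPM, the highest floor of 3 reads, and holds only the U251 libraries of SLC25A27, of which the siControl library is drawn at the 0.0001 CPM that stands for 0 reads.

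The knock-down of HOTAIRM1 was compared over the 3 cell lines as siHOTAIRM1 minus siControl on the log2(CPM + 1) scale, in limma with the cell line as block. None of the members passed: 0 of 61 had an adjusted p under 0.05, where 2.0% of all 14294 tested genes were called. At an unadjusted p under 0.05, 9 members were lower (14.8%, beside 14.2% of all genes) and 0 were higher (beside 4.19%). The share of lower members was near that of all genes. A paired t-statistic computed gene by gene called 0 members as well, with 4 of 61 at an unadjusted p under 0.05, beside 896 of 14294 genes.

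The lines differed in their changes. For LN-229, T98G and U251, the median changes of the 61 genes were 0.02, -0.27 and -0.16, where those of all tested genes were 0.01, -0.19 and -0.03. Values were lower in the siHOTAIRM1 library for 26 members in LN-229, 59 in T98G (96.7%, beside 79.3% of all genes) and 44 in U251 (72.1%, beside 53.2%). Centring every library on its own median brought the T98G median of the members to -0.08 and that of U251 to -0.08. The medians of all tested genes were then 0.006 in T98G and 0.05 in U251. Relative to the line's median gene the members were lower by a median change of -0.08 in T98G and -0.14 in U251.

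Within a line, the 95% counting interval of the change lay below 0 for 9 of 61 members in LN-229 (14.8%, beside 21.6% of all tested genes), 45 of 61 in T98G (73.8%, beside 59.4%) and 36 of 60 in U251 (60%, beside 40.8%). It lay above 0 for 17 members in LN-229 (27.9%, beside 27.4% of all genes), 0 in T98G (beside 7.55%) and 11 in U251 (18.3%, beside 31.3%). SLC25A27 had too few reads in U251 for an interval. These intervals leave out the spread between cultures, and in RNA of whole cultures, fewer cells with a transcript and less of it per cell cannot be told apart. In all 3 lines 20 members were lower (32.8%, beside 28.1% of all genes) and 2 were higher, SLC25A29 and SLC25A37 (3.28%, beside 11.4%). Across the 61 genes, the changes in T98G and U251 had a Pearson correlation of 0.550 (0.410 across all tested genes), those in LN-229 and T98G one of 0.265 (0.248) and those in LN-229 and U251 one of 0.273 (0.286). Genes are not independent replicates, and they share the library, its depth and the scale.

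The import genes had lower median changes than the carriers in all 3 lines, a difference given as a description without a test. For LN-229, T98G and U251, the median changes were -0.02, -0.35 and -0.24 over the 22 import genes, and 0.04, -0.23 and -0.12 over the 39 carriers. All 22 import genes had a lower value in T98G (100%, beside 79.3% of all tested genes) and 18 of them in U251 (81.8%, beside 53.2%). The summed level of the import genes was 629 and 628 CPM in LN-229, 540 and 409 CPM in T98G and 1075 and 795 CPM in U251. That of the carriers was 829 and 851 CPM in LN-229, 954 and 782 CPM in T98G and 1226 and 1061 CPM in U251. Both sums were lower in the siHOTAIRM1 library of T98G and U251 and nearly level in LN-229. The whole table moved in the same direction: the sum of all listed genes differed by 3.23% in LN-229, -14.6% in T98G and by -16.8% for U251, beside -0.111, -24.4 and -26.0% for the import genes and 2.73, -18.0 and -13.5% for the carriers.

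Of the 8 tested TOMM genes, of which TOMM34 encodes a co-chaperone of the cytosol, 6 were lower in all 3 lines (75%, beside 28.1% of all genes). The 8 genes had a median change of -0.06, -0.41 and -0.28 in LN-229, T98G and U251. Of the 8, 2 (TOMM5 and TOMM6) had an unadjusted p under 0.05 in limma. Both were lower, where 14.2% of all tested genes were lower at that p. TOMM5 had the lowest mean change of all members, with -0.17, -0.41 and -1.09 in LN-229, T98G and U251, and its level in U251 differed by -53.1% (95% counting interval -54.4 to -51.9%). Its mean change over the lines was -0.56 (SE 0.157, unadjusted p = 0.00119, adjusted p = 0.0549 in limma). TOMM5 lies on chromosome 9, minus strand, from 37582646 to 37592604 (GENCODE v44, hg38).

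TOMM5 stood at the threshold. Its adjusted p in limma was 0.00974 when the filter was set at 5 CPM and 0.0123 with a pseudocount of 0.1, and it passed in those settings as the single member called. Without the LN-229 pair of libraries its adjusted p was 0.0488. It did not pass without T98G (0.581) or U251 (0.818), with centring (0.204), with the non-polyadenylated RNAs taken out of the scale (0.0951), with the length trend removed (0.0753), by the paired t-statistic (0.637), without the filter (0.980) or without the block (1.0). The levels of the siControl library of U251, which stood apart, enter these values, and with the 5 non-polyadenylated RNAs taken out of the scale its change in U251 was -1.20. The part of that library in the result was not tested.

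TOMM7 differed between lines, with 45.9 and 55.3 CPM in LN-229, 32.6 and 23.9 CPM in T98G and 60.0 and 35.4 CPM in U251. TOMM6 was at 35.0 and 34.4 CPM in LN-229, 21.1 and 16.0 CPM in T98G and 73.1 and 45.4 CPM in U251, with all its exonic bases inside another annotated gene. TOMM40, the pore, had changes of 0.18, -0.31 and 0.16 in LN-229, T98G and U251. On the CPM scale as deposited, the small subunits were thus lower in U251 while the value of the pore was higher. With the non-polyadenylated RNAs taken out of the scale, the U251 median of all tested genes went from -0.03 to -0.11. The part of the scale in the TOMM40 value was not tested. TOMM20, TOMM22, TOMM34 and TOMM40L had mean changes between -0.27 and -0.18.

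The 6 small TIM chaperones had median changes of 0.06, -0.22 and -0.44 in LN-229, T98G and U251. All 6 were lower in T98G and in U251 and 2 of them (TIMM8B and TIMM10B) also in LN-229. Of all tested genes, 48.4% were lower in both T98G and U251 and 28.1% in all 3 lines. TIMM8B had changes of -0.08, -0.27 and -0.93 in LN-229, T98G and U251, and a mean change of -0.43 (SE 0.154, adjusted p = 0.128 in limma). TIMM8A, its paralogue, had changes of 0.06, -0.17 and -0.62, and TIMM10 had 0.15, -0.51 and -0.51. TIMM22, the channel into which these chaperones deliver carriers, had changes of 0.15, -0.25 and -0.04, each within the range of the other import genes.

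The TIM23 complex held genes of both ends. TIMM23, a channel subunit, was at 27.4 and 25.6 CPM in LN-229, 24.9 and 16.3 CPM in T98G and 54.7 and 39.7 CPM in U251, and its mean change was -0.38 (SE 0.144, adjusted p = 0.151 in limma). TIMM23B was at 7.24 and 7.58 CPM in LN-229, 5.31 and 5.04 CPM in T98G and 7.15 and 8.82 CPM in U251, with a mean change of 0.09 (SE 0.144, adjusted p = 0.787 in limma). TIMM23 was lower in every line while TIMM23B was not.

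The ratio of TIMM23 to TIMM23B went from 3.78 to 3.38 in LN-229, from 4.70 to 3.24 in T98G and from 7.65 to 4.50 in U251. The copies share nearly all bases around their starts, as printed above, and 31.1% of the exonic bases of TIMM23B overlap the read-through gene TIMM23B-AGAP6. The authors' estimation step split the reads of such genes between them, so the single values of TIMM23 and TIMM23B are uncertain.

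TIMM17A and TIMM17B encode alternative forms of another subunit of the TIM23 complex. TIMM17A was at 46.7 and 45.6 CPM in LN-229, 42.7 and 29.9 CPM in T98G and 75.7 and 50.5 CPM in U251, with a mean change of -0.37 (SE 0.147, adjusted p = 0.170 in limma). TIMM17B had changes of 0.10, -0.17 and -0.25 in LN-229, T98G and U251, above those of TIMM17A in each line by 0.13, 0.33 and 0.32. TIMM44, which ties the import motor to the channel, and the subunit TIMM21 had mean changes of 0.03 and -0.03, and TIMM50, the receptor for presequences, had -0.22.

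**Figure D3:**
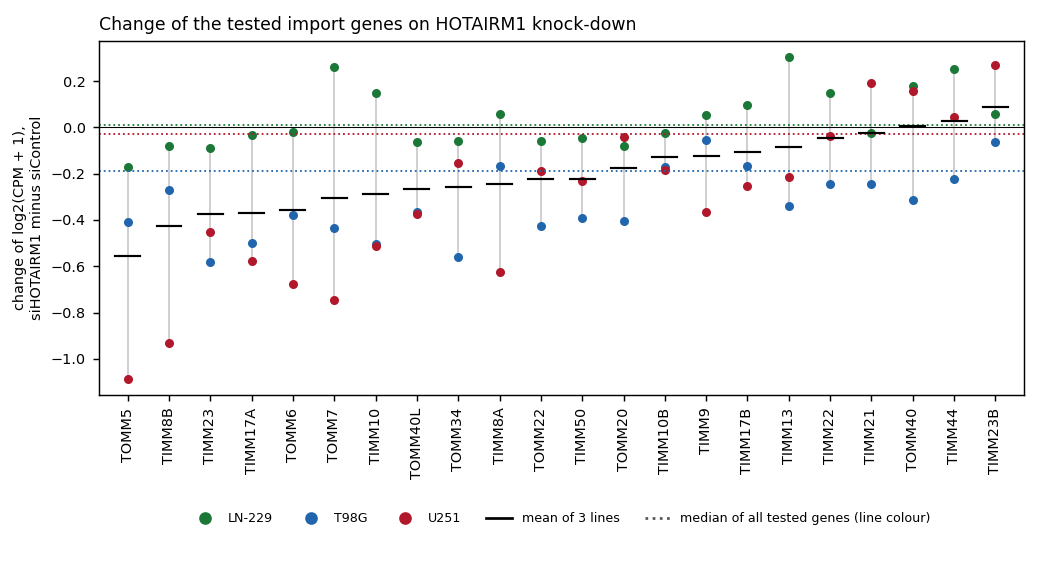
Change of log2(CPM + 1), siHOTAIRM1 minus siControl, of the 22 tested import genes, in order of the mean over the lines (black bars). Points are the 3 cell lines and dotted lines the median of all tested genes in each line. TOMM5 and TIMM8B lie at the lower end through their U251 values of -1.09 and -0.93, and TIMM23B lies at the upper end.

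Carriers of adenine nucleotides and phosphate (7 tested) had median changes of 0.05, -0.34 and -0.14 in LN-229, T98G and U251. SLC25A3, the phosphate carrier, was at 189 and 196 CPM in LN-229, 135 and 102 CPM in T98G and 194 and 153 CPM in U251. SLC25A5 had changes of 0.01, -0.46 and -0.48 and a mean of -0.31 (SE 0.157, adjusted p = 0.287 in limma). SLC25A6 had changes of 0.29, -0.28 and -0.14, above those of SLC25A5 in each of the 3 lines.

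SLC25A24, a carrier of ATP-Mg and phosphate, was at 30.4 and 25.9 CPM in LN-229, 48.1 and 35.2 CPM in T98G and 28.8 and 20.1 CPM in U251. It was lower in the siHOTAIRM1 library of each line, and its change of -0.22 was the lowest of all members in LN-229. The mean change was -0.39 (SE 0.141, unadjusted p = 0.00950, adjusted p = 0.131 in limma). SLC25A25, of the same kind, had changes of 0.06, -0.20 and -0.00018.

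SLC25A12 and SLC25A13 encode the aspartate/glutamate carriers of the malate-aspartate shuttle. SLC25A12 was at 14.3 and 13.6 CPM in LN-229, 15.5 and 10.4 CPM in T98G and 27.5 and 17.4 CPM in U251, with a mean change of -0.41 (SE 0.147, unadjusted p = 0.00833, adjusted p = 0.124 in limma), the lowest of the carriers. SLC25A13 was at 42.2 and 42.3 CPM in LN-229, 35.6 and 29.6 CPM in T98G and 45.4 and 41.8 CPM in U251. The change of SLC25A12 lay below that of SLC25A13 by -0.07, -0.27 and -0.52 in LN-229, T98G and U251. SLC25A11, the oxoglutarate carrier of the same shuttle, had changes of 0.05, -0.29 and -0.49.

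Of the other carriers, SLC25A20, which moves acylcarnitines for fatty acid oxidation, had changes of -0.14, -0.40 and -0.46 and SLC25A30, a relative of the uncoupling proteins, had -0.19, -0.40 and -0.38. These carriers, with SLC25A12 and SLC25A24, were the 4 of 39 tested carriers at an unadjusted p under 0.05 in limma. All 4 were lower, where 14.2% of all tested genes were lower at that p. The adjusted p-values in limma were 0.207 (SLC25A20) and 0.220 (SLC25A30). The 7 tested amino acid carriers had median changes of 0.04, -0.23 and -0.05. The 11 tested carriers of cofactors and nucleotides had -0.00015, -0.19 and -0.16.

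The 3 tested carriers of carboxylates had values that were higher in LN-229 and lower in T98G, where 79.3% of all tested genes were lower. The 95% counting interval held 0 for SLC25A11 in LN-229 (-3.19 to 11.5%) and for SLC25A10 in T98G (-18.4 to 3.22%). SLC25A1, the citrate carrier, was at 16.5 and 20.2 CPM in LN-229, 19.0 and 15.3 CPM in T98G and 21.3 and 22.6 CPM in U251. SLC25A10, the dicarboxylate carrier, had changes of 0.25, -0.11 and -0.17 in LN-229, T98G and U251, and 46.6% of its exonic bases overlap another gene. None of the 3 tested carboxylate carriers had an unadjusted p under 0.05 in limma.

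Several of the remaining carriers had changes of different sign in different lines. SLC25A38, a glycine carrier used in heme synthesis, had changes of 0.19, -0.12 and -0.05 in LN-229, T98G and U251, and SLC25A22, a glutamate carrier, had 0.22, -0.18 and -0.05. SLC25A44, a carrier of branched-chain amino acids, had 0.01, -0.28 and 0.18, and SLC25A51, the carrier of NAD+, had -0.08, -0.12 and 0.11. SLC25A26, which brings in S-adenosylmethionine, had 0.10, -0.24 and -0.41. SLC25A46, a family member of the outer membrane, was at 33.7 and 32.4 CPM in LN-229, 57.0 and 44.8 CPM in T98G and 63.7 and 51.9 CPM in U251, lower in the siHOTAIRM1 library of each line. Each of these carriers was lower in T98G, as were 37 of the 39 (94.9%, beside 79.3% of all tested genes). Only SLC25A29 and SLC25A37 had a change at or just above 0 there.

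At the upper end, 6 members lay above the others by their mean deviation from the median member of each line: SLC25A37, SLC25A29, SLC25A36, SLC25A42, SLC25A16 and TIMM23B. SLC25A37 had changes of 0.04, 0.01 and 0.68 in LN-229, T98G and U251, where its level was higher by 62.4% (95% counting interval 53.7 to 71.6%). SLC25A36 had changes of -0.02, -0.09 and 0.54, a U251 level higher by 46.7% (38.2 to 55.8%). For both, the high value was that of U251, whose siControl library stood apart. With the non-polyadenylated RNAs taken out of the scale, the U251 changes were 0.58 for SLC25A37 and 0.43 for SLC25A36, and the part of that library in them was not tested.

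The mean change of SLC25A37 was 0.24 (SE 0.154, adjusted p = 0.405 in limma), that of SLC25A29, a carrier of basic amino acids, was 0.20 (SE 0.144, adjusted p = 0.469) and that of SLC25A36 was 0.14 (SE 0.150, adjusted p = 0.645). SLC25A29 was at 13.2 and 17.1 CPM in LN-229, 11.4 and 11.4 CPM in T98G and 7.94 and 9.60 CPM in U251. Its change of 0.35 in LN-229 was the highest of all members there. SLC25A42, a carrier of coenzyme A, was at 0.782 and 1.21 CPM in LN-229, 3.59 and 3.11 CPM in T98G and 3.14 and 3.93 CPM in U251. SLC25A16 was at 7.60 and 8.18 CPM, 10.7 and 9.43 CPM and 9.82 and 13.2 CPM in the same lines.

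SLC25A28, which encodes mitoferrin-2, had changes of 0.06, -0.30 and 0.24 in LN-229, T98G and U251. On the CPM scale as deposited, both iron carriers were thus higher in U251. Their summed level was 37.4 and 58.5 CPM there, a difference of 56.4%, beside 3.24% in LN-229 and -1.98% in T98G. SLC25A33, the other pyrimidine nucleotide carrier, had -0.13, -0.18 and -0.26, below SLC25A36 in each line and by 0.80 in U251. The carriers of glutathione, SLC25A39 and SLC25A40, had changes of 0.16, -0.36 and -0.06 and of -0.19, -0.23 and -0.17.

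**Figure D4:**
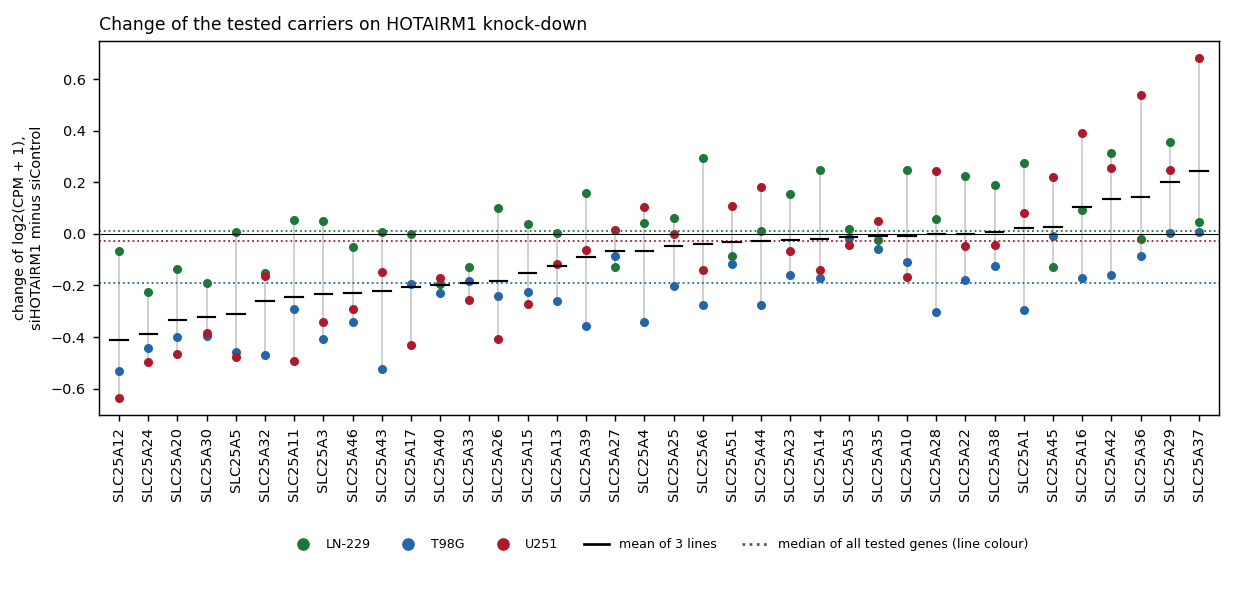
Change of log2(CPM + 1), siHOTAIRM1 minus siControl, of 38 of the 39 tested carriers, in order of the mean over the lines (black bars), with points for the 3 cell lines and dotted lines for the median of all tested genes in each line. SLC25A37 and SLC25A36 stand at the upper end through U251 (0.68 and 0.54), and SLC25A12 and SLC25A24 at the lower end in T98G and U251.

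Transcript length moved with the changes. Across 12355 tested genes with a length, Spearman's rho of the change with the canonical length was -0.02, 0.24 and 0.31 in LN-229, T98G and U251, and across the 61 members it was -0.22, 0.17 and 0.37. The median length was 1716 bases for the import genes, 2891 for the carriers and 3292 for all tested genes. The 6 members under 1 kb (TOMM7, TOMM6, TIMM10, TOMM5, TIMM8B and TIMM17B) had a median change of 0.04, -0.39 and -0.71 in LN-229, T98G and U251. All 6 are import genes.

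The other 16 import genes had medians of -0.02, -0.33 and -0.19 in LN-229, T98G and U251. With the trend over length removed, the medians of the 22 import genes were -0.02, -0.29 and -0.17 and those of the 39 carriers 0.04, -0.24 and -0.07, and the member with the smallest adjusted p in limma was SLC25A12 (0.0541). Length differs together with the class of gene here, and its part in the difference between import genes and carriers was not tested further.

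**Figure D5:**
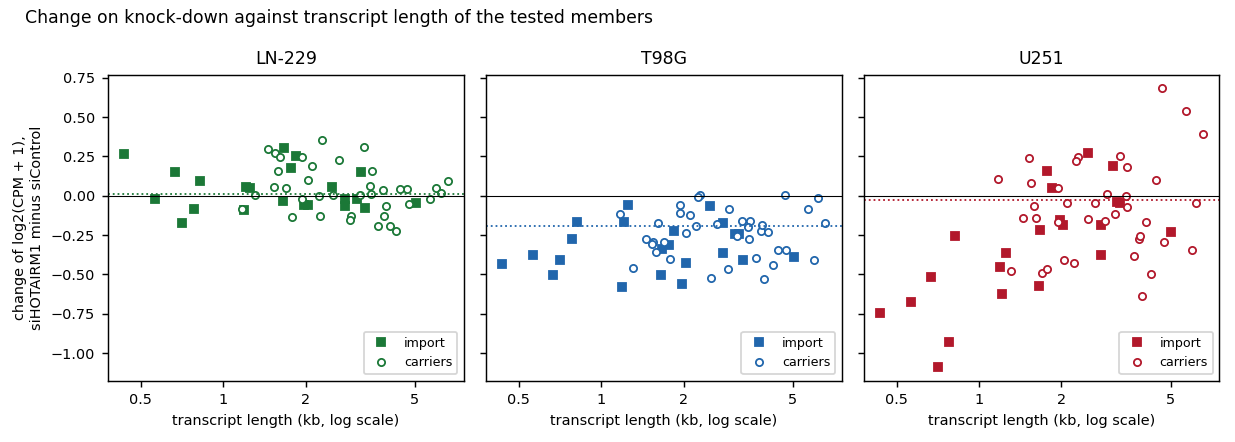
Change of log2(CPM + 1), siHOTAIRM1 minus siControl, against the length of the canonical transcript (kb, log scale) of 60 of the 61 tested members in each line, with squares for import genes, open circles for carriers and a dotted line for the median of all tested genes. In U251 the shortest import genes lie lowest, down to -1.09, and in LN-229 they do not.

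Of 24 other genes of import and processing, 0 passed the threshold in limma and 4 had an unadjusted p under 0.05, all lower (beside 14.2% of all genes lower at that p, as for the lists that follow). These were TOMM70A, PAM16 of the import motor, ROMO1 and CHCHD4, which oxidizes imported proteins in the intermembrane space. TOMM70A had changes of -0.13, -0.45 and -0.43 in LN-229, T98G and U251. The list had median changes of 0.08, -0.28 and -0.23. Of 13 other tested genes of mitochondrial membrane transport, 0 passed and 3 had an unadjusted p under 0.05, all lower (MPC1 and MPC2 of the pyruvate carrier and VDAC3 of the outer membrane). The 77 genes of mitochondrial ribosomal proteins had median changes of 0.01, -0.36 and -0.46, with 0 past the threshold in limma and 33 lower at an unadjusted p under 0.05.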

How the data were processed

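RNA of 3 cell lines under 2 conditions was sequenced. Per the study's methods and the labels, the authors prepared libraries with the TruSeq v2 kit, which does not mark strand, aligned reads to hg38 with STAR 2.4.1d and quantified them on Ensembl release 84 by Expectation-Maximization. The deposited table holds CPM computed by the authors, with 0.0001 added, 1 column per library. Members were found by symbol. The members and lists were chosen with earlier results of these data known. The named members were, by rule, those past the threshold, the 6 highest and 6 lowest by mean deviation from the median member of each line, the 8 highest by mean CPM, the 3 with the largest called difference in each direction of each pair of lines, and members without reads or with over 3 reads in a single line. Others were named for their role. Counts and medians include 1 carrier that is not reported here.

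Genes averaging 1 CPM or more entered limma 3.58.1 (R 4.3.3) on log2(CPM + 1), with a trend of variance on level, a term for the cell line and Benjamini-Hochberg adjustment. The line pairs used the condition as covariate. The block rests on the libraries coming in pairs from the same cell line: within a line the deviations of the pair from the group means correlated at 0.948 to 0.967. Between 70.9 and 77.0% of values above the offset were whole reads (tolerance 0.02 reads), so count tests were not used. Counting intervals and floors (95%, 3 reads) cover counting error only. Transcript lengths, overlaps and positions came from GENCODE v44, promoters from RefSeq (GRCh38.p14). Alternatives were no block, median centring, other filters and pseudocounts, leaving out lines or libraries, summing pseudogenes, removing the trend with length, and a paired t-statistic; taking non-polyadenylated RNAs out of the scale was added after the data were seen. The fits were tested on simulated data. Python 3.11.15 (numpy 2.4.6, pandas 2.3.3, scipy 1.17.1, matplotlib 3.10.9, biopython 1.88) was used for the rest.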

Additional observations from a re-analysis of the deposited data

Results flagged for a closer look

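Of the 61 tested members, 14 (23.0%) had changes of opposite sign in at least 1 pair of lines, with counting intervals that excluded 0 in both and with the same signs relative to the median gene of each line. Of all tested genes, 19.8% did so, a share near that of the members. The values are differences between changes on the log2(CPM + 1) scale. LN-229 lay above T98G by 0.70 for TOMM7, 0.66 for TIMM10, 0.65 for TIMM13, 0.57 for SLC25A6, 0.57 for SLC25A1, 0.51 for SLC25A39, 0.49 for TOMM40, 0.47 for TIMM44, 0.46 for SLC25A3 and 0.39 for TIMM22. It lay above U251 by 1.01 for TOMM7, 0.66 for TIMM10, 0.52 for TIMM13, 0.43 for SLC25A6, 0.42 for SLC25A10 and 0.39 for SLC25A3. U251 lay above T98G by 0.55 for SLC25A28, 0.47 for TOMM40, 0.46 for SLC25A44 and 0.43 for TIMM21. With 1 library per line and condition, these differences between lines were not tested.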

How the results depend on the processing

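The count of members past the threshold on knock-down was 0 of 61 under no replicate block (0 members and 29 genes at an unadjusted p under 0.05), centring, the paired t-statistic, pseudogene sums, the length trend removed and the non-polyadenylated RNAs taken out, and 0 of 74 without a filter. It was 1 (TOMM5) with a filter of 5 CPM and with a pseudocount of 0.1. Leaving out a line gave 0 to 1, with the 1 without LN-229. The median of the members' mean changes was -0.12 and ranged from -0.05 (centred) to -0.21 (without LN-229). Leaving out a line gave mean changes from -0.0018 to 0.16 for TIMM23B, from -0.039 to 0.24 for SLC25A16 and from -0.054 to 0.26 for SLC25A36, negative in each case without U251 and highest without T98G. With centring, 8 members were lower and 10 of 61 in all changed at an unadjusted p under 0.05, beside 2609 of 14294 genes changed in all.

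Over all genes, the 286 calls (20.6% higher) became 41 with centring (36.6% higher), 607 at 5 CPM, 683 with a pseudocount of 0.1, 577 with the length trend removed, 127 without the non-polyadenylated RNAs, 149 without U251 and 0 without T98G, without the block, without the filter and by the paired t-statistic.

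Between lines, 33 members (T98G and LN-229), 35 (U251 and LN-229) and 48 (U251 and T98G) passed. In the same order, 54.9, 60.6 and 64.2% of all tested genes passed. Without a filter, 6, 8 and 9 of 74 passed, beside 7.31, 6.44 and 6.64% of all genes. No replicate block gave 28, 29 and 40, beside 44.7, 52.2 and 56.1% of all genes. Leaving out a library gave 19 to 33, 24 to 31 and 29 to 46. The lowest were 19 without either T98G library, 24 without the siControl library of LN-229 and 29 without the siHOTAIRM1 library of T98G. Between T98G and LN-229, 20 passed without the siHOTAIRM1 library of LN-229. In the fits named here, fewer of all tested genes were called as well. The causes were not tested. A line then stands on 1 library, which is assumed to vary like the others. The 13 untested members were left out by their mean level.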
